A study of Gallus gallus with 6 samples.

Results

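The genes described here are the solute carriers that move amino acids, small peptides and neurotransmitters across membranes, measured by RNA-seq in cells of broiler ileum that had been sorted as macrophages. They were chosen by symbol, as genes of solute carrier (SLC) families 1, 3, 6, 7, 15, 36, 38 and 43, and selected on a summed count of at least 60 over 6 libraries. All 53 of the 53 genes whose names match passed that minimum, of 27656 genes in the table, and the lowest, SLC6A17, had 75 counts, so no gene of these names fell below it. Family 6 contributed 17 genes, family 7 12, family 38 9, family 1 6 and family 15 4, while families 36 and 43 gave 2 each and family 3 gave 1. SLC7A6OS is counted among them by its name only, since its human counterpart is a partner of RNA polymerase II and not a transporter.

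All birds had received an injection of lipopolysaccharide (LPS), a part of the outer membrane of Gram-negative bacteria that provokes inflammation. One group had also been given Lactobacillus reuteri, a gut bacterium used as a probiotic, by gavage. The groups are called LPS and LPS+LR21 as in the labels, with 3 libraries each (LPS1, LPS2 and LPS3 against LR1_2, LR3 and LR4). No library of birds without LPS was analysed here, and the birds' age, the doses and the timing are not given in the sources used here. The sort used the antibody KUL01, which binds mononuclear phagocytes of chickens, and the samples are labelled as macrophages.

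In the gut, peptidases of the brush border cut dietary peptides into amino acids and very short peptides, and carriers of the apical enterocyte membrane take these up, driven by sodium ions, protons or exchange. Several of these carriers work as heterodimers, in which a heavy chain of family 3 brings a light chain of family 7 to the membrane. Other members serve cells in general: system L carriers import large neutral amino acids, family 38 carriers move glutamine and alanine, and lysosomal carriers return amino acids to the cytosol and report them to the growth regulator mTORC1.

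Total counts ranged from 31284679 to 45492503 per library. Of 22 macrophage markers in the table, all 22 had counts in both groups, with a summed level of 7196 to 8945 FPKM in the LPS group, against 2289.9 to 5433 in the LPS+LR21 libraries. FPKM is a level per length of gene model and per library total, recomputed for all libraries. Of these 22, 1 was called lower (VSIG4) and none higher by edgeR, while all 22 were fitted below 0 (median log2 fold change -1.36). At an unadjusted p under 0.05 by edgeR 17 were lower, and DESeq2 called 10 lower. Only MRC1 lacked a count in some library. Of 25 epithelial markers, 6 were called higher and none lower by edgeR, and none was without counts in any library. Of the 25, 24 were fitted above 0 (median log2 fold change 2.24). At an unadjusted p under 0.05 by edgeR 23 were higher, and DESeq2 called 23 higher. The summed level of the 25 was 684 to 1276 FPKM in the LPS group, against 1956 to 10121 in the LPS+LR21 libraries. The library LR3 stood apart from LR1_2 and LR4 and was nearer to the LPS libraries by the statistic that follows, but not for every gene. LR3 was the LPS+LR21 library nearest to the LPS mean for 8093 of the 20726 tested genes with FPKM. The T and NK cell markers described below were furthest from the LPS group in LR3. By a chi-square statistic per degree of freedom over genes it differed by 156 to 217 from LPS1, LPS2 and LPS3, and by 506 and 326 from LR1_2 and LR4. In such bulk libraries, fewer cells of a type and less RNA per cell cannot be told apart.

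Carriers of the apical enterocyte membrane made up 5 of the 6 members that rose in the LPS+LR21 libraries. SLC15A1, SLC6A19, SLC7A9, SLC3A1 and SLC1A1 rose to between 7.10 and 8.59 times their LPS mean, and the serotonin transporter gene SLC6A4 to 5.27 times. Of the 52 members tested 6 rose, which is 11.5%, beside 0.974% of all 20745 genes tested that were called higher (edgeR's quasi-likelihood test, Benjamini-Hochberg adjustment over all tested genes, adjusted p under 0.05). In either direction 1.06% of all genes were called. No member was called lower by this test, where 0.0819% of all genes were, although 7 members were lower at an unadjusted p under 0.05. Of the 20726 tested genes with FPKM, 1528 were higher and 955 were lower at that unadjusted p by edgeR. DESeq2 called 8 members higher and 3 lower of the 32 to which it gave an adjusted p. Over all 12082 genes with such a value it called 1008 higher and 341 lower. By limma-trend on log2(FPKM + 0.1), 7 of 52 members were called higher and 1 lower, beside 394 and 47 of all 20726 genes. The 6 calls were near the threshold, with adjusted p from 0.0344 to 0.0495, and depended on 5 of the 6 libraries. Without LR3 all 6 were called again together with SLC6A20. Without LPS1, LPS2, LPS3, LR1_2 or LR4 in turn no member and no other gene was called by edgeR, with adjusted p of 0.121 to 0.272 for the 6, although 7 to 9 members were higher at an unadjusted p under 0.05. With upper-quartile normalization none was called either, with adjusted p of 0.0534 to 0.0721 for the 6. The log2 fold changes of the 6 genes stayed between 2.03 and 3.22 over the 6 fits that each left out 1 library. Epithelial markers were also mostly higher in the LPS+LR21 libraries. Their median log2 ratio to the LPS mean was 3.07 for LR1_2, 1.04 for LR3 and 2.55 for LR4, beside 3.01, 2.03 and 3.19 for the 8 apical carriers in the table. Values of 0 FPKM have no log2 ratio and were left out of such medians, so the LR3 median of the carriers does not include SLC6A14. The part of epithelial cells in the result was not tested.

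**Figure D1:**
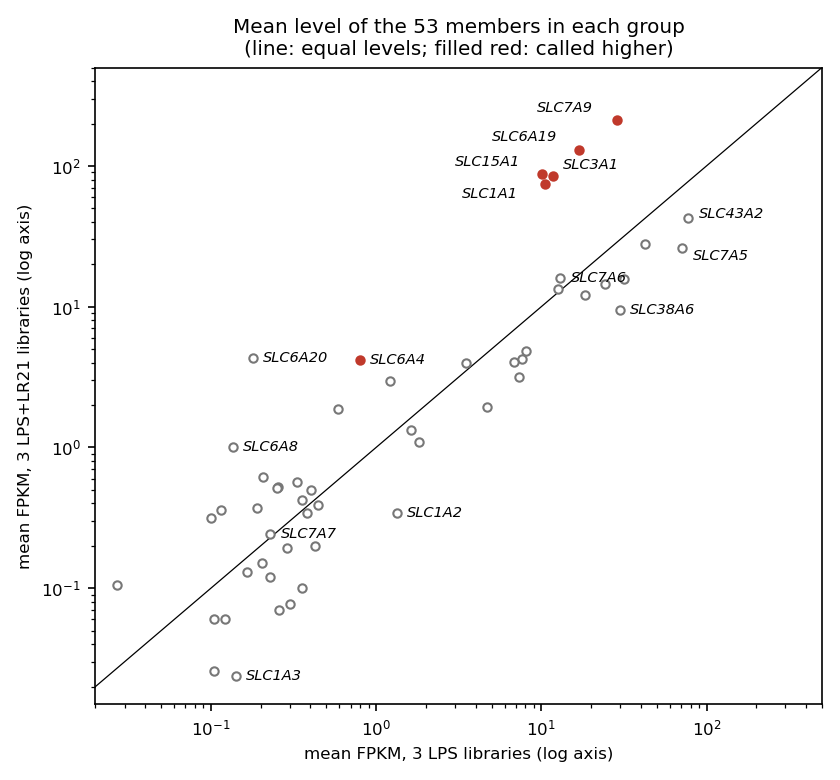
Mean FPKM of each of the 53 members in the 3 LPS libraries (horizontal, log axis) and in the 3 LPS+LR21 libraries (vertical, log axis), with the line of equal levels and the 6 members called higher in filled red. The 5 apical carriers stand together far above the line, with 10.1 to 28.5 FPKM on the horizontal axis and 74.6 to 212 on the vertical one, while SLC43A2, SLC7A5 and SLC38A6 lie below it.

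SLC15A1 encodes PepT1, the proton-coupled carrier that takes up di- and tripeptides (ENSGALG00010005851, chromosome 1, 144823021 to 144845173, plus strand). Its level was 7.48, 12.2 and 10.7 FPKM in LPS1, LPS2 and LPS3, and 78.2, 51.8 and 131 in LR1_2, LR3 and LR4. The groups did not overlap, and even LR3, the lowest of its group, was 5.11 times the LPS mean. The log2 fold change was 2.93 ± 0.37 (SE), with adjusted p = 0.0344 by edgeR's quasi-likelihood test. The other plasma membrane peptide carrier, SLC15A2 (PepT2, the high-affinity form of kidney and glia), had a mean of 0.190 FPKM for LPS and 0.368 for LPS+LR21.

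SLC6A19 encodes B0AT1, the main sodium-driven carrier of neutral amino acids in the brush border (chromosome 2, 85310809 to 85332213, plus strand). Its level was 17.1, 19.6 and 14.2 FPKM in LPS1, LPS2 and LPS3, and 131, 70.2 and 191 in LR1_2, LR3 and LR4. All LPS+LR21 libraries were above all LPS libraries, and the log2 fold change was 2.77 ± 0.37 (SE; adjusted p = 0.0344, edgeR). SLC6A18, a close relative known in mammals from the kidney, lies 1543 bases from SLC6A19 on the same strand. SLC6A18 was far lower, at 0.0476, 0.458 and 0.117 FPKM in LPS1, LPS2 and LPS3, and 0.655, 0.223 and 0.978 in LR1_2, LR3 and LR4. Its groups overlapped, and its log2 fold change of 1.41 ± 1.09 (SE) was not called (adjusted p = 0.749, edgeR).

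SLC3A1 and SLC7A9 encode the heavy and the light chain of the exchanger that takes up cystine and cationic amino acids, rBAT and b0,+AT. SLC3A1 (chromosome 3, 25161290 to 25180867, plus strand) had 14.96, 10.6 and 9.49 FPKM in LPS1, LPS2 and LPS3, and 101, 45.2 and 109.7 in LR1_2, LR3 and LR4, a fitted log2 change of 2.70 ± 0.38 (SE; adjusted p = 0.0359, edgeR). SLC7A9 (chromosome 11, 9586338 to 9600877, minus strand) had 41.3, 21.2 and 23.1 FPKM in LPS1, LPS2 and LPS3, and 313, 74.7 and 248 in LR1_2, LR3 and LR4, with a fitted log2 change of 2.72 ± 0.52 (SE; adjusted p = 0.0485, edgeR). Both chains were higher in every LPS+LR21 library than in any LPS library, and for SLC7A9 LR3 was 2.62 times the LPS mean where LR1_2 was 10.97 times. The level of the light chain over that of the heavy chain, both per length, was 2.76, 2.00 and 2.43 in the LPS libraries and 3.10, 1.65 and 2.26 in LR1_2, LR3 and LR4, so this ratio overlapped between the groups.

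Each of these 2 genes overlaps others in the table, and whether counting used strand is not stated in the sources used here, so part of their counts could belong to a neighbour. How large that part is was not tested. PREPL, opposite to SLC3A1, had means of 1.66 and 1.80 FPKM in the LPS and LPS+LR21 libraries, and an unnamed gene there was at or under 0.00449. CEP89, on the same strand as SLC7A9, had 1.23 and 1.66.

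SLC1A1 encodes the glutamate and aspartate carrier EAAT3 of neurons and epithelia (chromosome Z, 27568032 to 27627756, plus strand). Its level was 12.7, 10.6 and 8.32 FPKM in LPS1, LPS2 and LPS3, and 88.2, 43.02 and 92.7 in LR1_2, LR3 and LR4. The groups did not overlap, and the log2 fold change was 2.67 ± 0.35 (SE; adjusted p = 0.0344, edgeR). SLC6A4 encodes the serotonin transporter, which clears serotonin in the gut as well as at synapses (chromosome 19, 6686095 to 6699170, minus strand). It was much lower than the nutrient carriers, at 0.828, 0.613 and 0.945 FPKM in LPS1, LPS2 and LPS3, and 4.96, 2.23 and 5.40 in LR1_2, LR3 and LR4. All LPS+LR21 libraries were higher, with a fitted log2 change of 2.22 ± 0.43 (SE; adjusted p = 0.0495, edgeR), and the call was lost with limma-trend on log2(FPKM + 1) (adjusted p = 0.0723). TPH1, which encodes the enzyme that makes serotonin in gut endocrine cells, had 1.32, 0 and 0.372 FPKM in LPS1, LPS2 and LPS3, and 0.972, 0.503 and 0.560 in LR1_2, LR3 and LR4, and was not called (adjusted p = 0.991, edgeR). TPH1 is 1 of the enteroendocrine markers described below, of which 7 of 9 tested were fitted above 0.

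**Figure D2:**
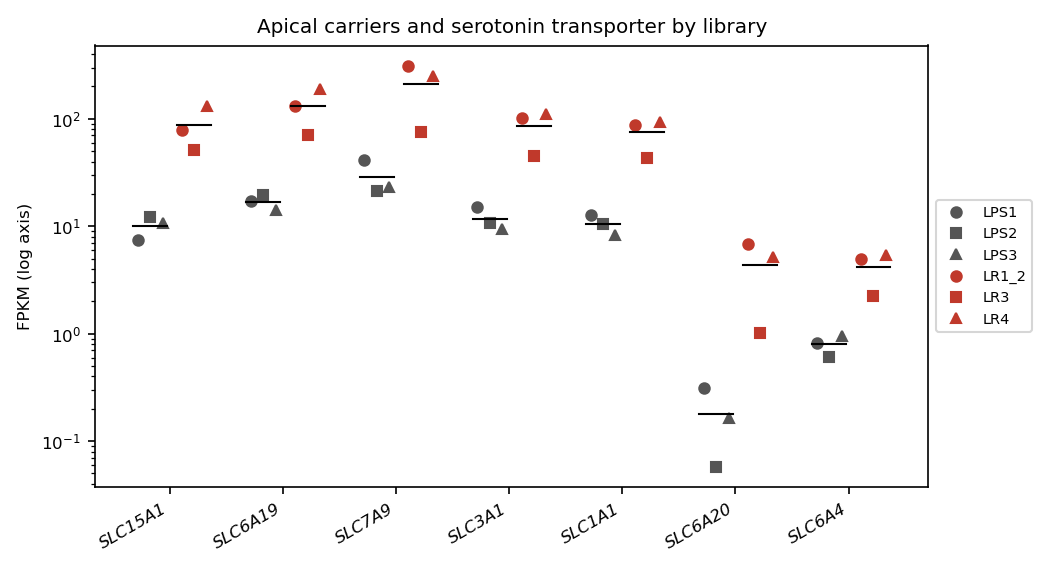
FPKM (log axis) of the 6 members called higher and of SLC6A20 in each of the 6 libraries, with LPS libraries in grey, LPS+LR21 libraries in red and group means as black lines. For all 7 genes the 3 red points lie above the 3 grey ones, and LR3 (red square) is the lowest red point each time.

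SLC6A20, which encodes the proline carrier SIT1 of the brush border (chromosome 2, 42720692 to 42736383, plus strand), had the largest fitted change of all members and narrowly missed the threshold. Its level was 0.315, 0.0575 and 0.165 FPKM in LPS1, LPS2 and LPS3, and 6.81, 1.02 and 5.18 in LR1_2, LR3 and LR4. The counts behind the LPS values were 52, 9 and 30. The groups did not overlap, and the log2 fold change was 4.40 ± 0.86 (SE; adjusted p = 0.0502, edgeR). It was called with DESeq2 (adjusted p = 1.3e-06), over a range of adjusted p from 1.3e-06 to 0.264 across the alternatives run. SNRPD1, which overlaps it on the opposite strand, was at 31.8 and 33.6 FPKM in the 2 groups. Part of the SLC6A20 counts could belong to SNRPD1, which was not tested. Of the 8 apical carriers measured 5 rose, and those not called were SLC6A20, SLC36A1 and SLC6A14. The median log2 fold change of the 8 was 2.71, beside -0.14 over all tested genes. SLC6A14, an apical carrier of neutral and cationic amino acids, was at 0.290 and 0.194 FPKM in the 2 groups and had no count in LR3.

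The order of the carriers by level differed between the groups. In the LPS libraries the 5 highest means per length were those of SLC43A2, SLC7A5, SLC6A6, SLC15A4 and SLC38A6, followed by SLC7A9. In the LPS+LR21 libraries they were those of SLC7A9, SLC6A19, SLC15A1, SLC3A1 and SLC1A1, followed by SLC43A2. The 8 apical carriers made up 25.5%, 20.1% and 18.7% of the summed FPKM of all 53 members in LPS1, LPS2 and LPS3, and 81.3%, 53.4% and 80.5% in LR1_2, LR3 and LR4. The summed level itself was 432 to 477 FPKM in the LPS group, against 568 to 973 in the LPS+LR21 libraries.

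**Figure D3:**
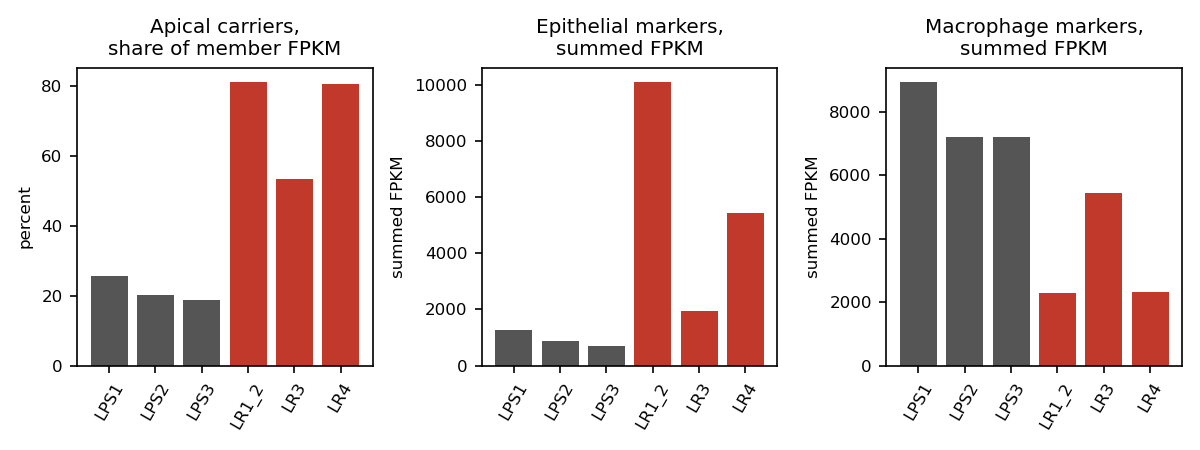
The left bars give the share of the 53 members' summed FPKM that the 8 apical carriers made up in each library (percent), and the other bars give the summed FPKM of 25 epithelial and of 22 macrophage markers. LR3 lies between the LPS libraries and the other LPS+LR21 libraries in all 3 panels.

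System L carriers, which move leucine and other large neutral amino acids, had lower values in the LPS+LR21 libraries, and none was called. SLC43A2, which encodes the carrier LAT4 (chromosome 19, 5790781 to 5818029, minus strand), had the highest mean of all members in the LPS group. Its values were 75.4, 79.2 and 77.6 FPKM in LPS1, LPS2 and LPS3, and 40.5, 56.7 and 31.3 in LR1_2, LR3 and LR4. The groups did not overlap, but the log2 fold change of -0.95 ± 0.35 (SE) was not called (adjusted p = 0.283, edgeR). SLC7A5, the light chain LAT1 that feeds leucine to activated cells (chromosome 11, 17605328 to 17636035, minus strand), had 62.8, 85.6 and 64.8 FPKM in LPS1, LPS2 and LPS3, and 11.6, 47.1 and 20.2 in LR1_2, LR3 and LR4. Its groups did not overlap either, and its log2 fold change was -1.52 ± 0.52 (SE; adjusted p = 0.232, edgeR). Without LR3, SLC43A2 was called lower at adjusted p = 0.0457 and SLC7A5 at 0.00209, and DESeq2 called SLC7A5 with all libraries (adjusted p = 0.0409). No gene in the table carried the name of the heavy chain SLC3A2 or of the basolateral light chain SLC7A8, so neither was analysed here. Macrophage markers had median log2 ratios to the LPS mean of -2.03 for LR1_2, -0.59 for LR3 and -1.78 for LR4. The medians were -1.60, -0.52 and -1.56 for the 4 listed system L and basolateral carriers, SLC43A2, SLC7A5, SLC43A3 and SLC7A7. Among these, SLC43A3 and SLC7A7 are not system L carriers. SLC43A2 alone had -0.93, -0.45 and -1.30 in LR1_2, LR3 and LR4, and SLC7A5 had -2.62, -0.60 and -1.81. The part of macrophage number in these values was not tested.

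SLC43A3, which in human cells carries purine bases and not amino acids, had 3.95, 11.2 and 6.91 FPKM in LPS1, LPS2 and LPS3, and 1.53, 6.33 and 1.60 in LR1_2, LR3 and LR4. Its groups overlapped, with LR3 inside the LPS range (log2 fold change -1.27 ± 0.64 SE, adjusted p = 0.506, edgeR). SLC7A6 and SLC7A7 encode the y+L light chains, which release cationic amino acids from cells. SLC7A6 had 12.7, 13.1 and 13.3 FPKM in LPS1, LPS2 and LPS3, and 16.8, 13.6 and 17.5 in LR1_2, LR3 and LR4, a fitted log2 change of 0.15 ± 0.27 (SE; adjusted p = 0.932, edgeR). SLC7A7, the form of the enterocyte's basolateral membrane, had 0.205, 0.183 and 0.297 FPKM in LPS1, LPS2 and LPS3, and 0.173, 0.0792 and 0.478 in LR1_2, LR3 and LR4, with overlapping groups and a fitted log2 change of -0.14 ± 0.65 (SE; adjusted p = 0.980, edgeR) whose sign turned with library totals. The levels per length of these 2 genes are not comparable with those of the other members. Their gene models, as implied by count and FPKM, were 24892 and 18658 bases long and took up 88.6% and 63.6% of the genes' spans. RIPK2, an adaptor of bacterial sensing, overlaps SLC7A7 on the same strand and had 8.86 and 2.50 FPKM in the 2 groups. Part of the SLC7A7 counts could belong to RIPK2, which was not tested.

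**Figure D4:**
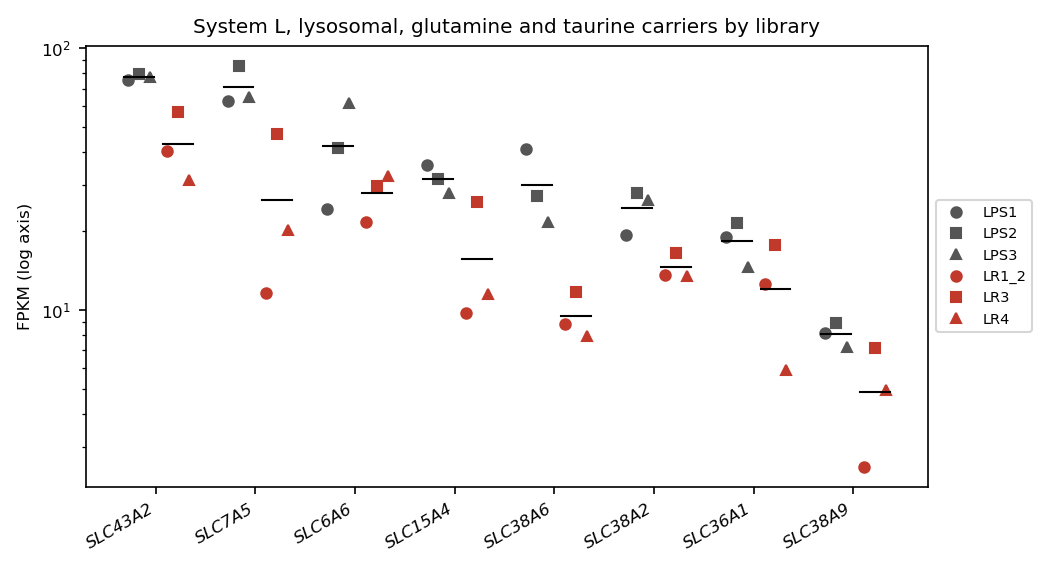
FPKM (log axis) of 8 system L, lysosomal, glutamine and taurine carriers in each of the 6 libraries, with LPS libraries in grey, LPS+LR21 libraries in red and group means as black lines. None of the 8 was called by edgeR. The red points lie below the grey ones without overlap for SLC43A2, SLC7A5, SLC15A4, SLC38A6, SLC38A2 and SLC38A9, and overlap them for SLC6A6 and SLC36A1.

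None of the 5 lysosomal carriers measured was called by edgeR, 2 were lower at an unadjusted p under 0.05, and neither DESeq2 nor limma-trend on log2(FPKM + 0.1) called any. SLC15A4 encodes PHT1, a proton-coupled exporter of histidine and peptides from the endolysosome that mouse immune cells need for signalling by nucleic-acid-sensing toll-like receptors (chromosome 15, 3779553 to 3800955, plus strand). It had 35.6, 31.7 and 27.8 FPKM in LPS1, LPS2 and LPS3, and 9.75, 25.8 and 11.5 in LR1_2, LR3 and LR4. LR3 came close to the LPS range while LR1_2 and LR4 were far below it, and the log2 fold change was -1.11 ± 0.43 (SE; adjusted p = 0.315, edgeR; 0.00581 without LR3). SLC36A1, a proton-coupled exporter of small amino acids from lysosomes that also sits in the enterocyte brush border, had 19.0, 21.4 and 14.5 FPKM in LPS1, LPS2 and LPS3, and 12.6, 17.7 and 5.90 in LR1_2, LR3 and LR4. Its groups overlapped (log2 fold change -0.68 ± 0.44 SE, adjusted p = 0.669, edgeR).

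SLC38A9, the arginine sensor that signals lysosomal amino acids to mTORC1, had 8.13, 8.87 and 7.24 FPKM in LPS1, LPS2 and LPS3, and 2.51, 7.17 and 4.93 in LR1_2, LR3 and LR4. LR3 was just below the LPS range, and the log2 fold change of -0.84 ± 0.40 (SE) was not called (adjusted p = 0.462, edgeR). SLC38A7, the lysosomal glutamine exporter, had 12.2, 5.67 and 5.22 FPKM in LPS1, LPS2 and LPS3, and 3.95, 4.44 and 4.35 in LR1_2, LR3 and LR4. LPS1 was high among its LPS libraries, and the log2 fold change was -0.99 ± 0.38 (SE; adjusted p = 0.313, edgeR).

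In the other glutamine and alanine carriers of family 38 the fitted changes went both ways, and none of the family's 9 members was called by edgeR, where 1 was higher and 3 were lower at an unadjusted p under 0.05. SLC38A6, whose substrates are less well known (chromosome 5, 53722676 to 53762088, minus strand), came nearest. It had 41.0, 27.1 and 21.7 FPKM in LPS1, LPS2 and LPS3, and 8.81, 11.7 and 7.97 in LR1_2, LR3 and LR4. The groups were well apart, and LR3 sat with its own group here. The log2 fold change was -1.77 ± 0.36 (SE; adjusted p = 0.0576, edgeR), and adjusted p across the alternatives ran from 0.000681 with DESeq2 to 0.263. It was called lower in 7 of 14 alternatives. TRMT5, on the opposite strand, was at 3.71 and 2.97 FPKM in the 2 groups.

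SLC38A2, a system A carrier that many cells induce when amino acids are short (chromosome 1, 31126915 to 31141960, minus strand), had 19.3, 27.9 and 26.2 FPKM in LPS1, LPS2 and LPS3, and 13.6, 16.5 and 13.4 in LR1_2, LR3 and LR4. The groups did not overlap, and the log2 fold change was -0.87 ± 0.30 (SE; adjusted p = 0.236, edgeR). SLC38A1 and SLC38A4, which lie on either side of it on the same strand, had log2 fold changes of 0.04 and 1.53 and were not called, although the 3 LPS+LR21 values of SLC38A4 were all above the LPS values. SLC38A10, a little-studied family member, had 1.13, 1.35 and 1.18 FPKM in LPS1, LPS2 and LPS3, and 3.82, 2.26 and 2.87 in LR1_2, LR3 and LR4 (log2 fold change 1.16 ± 0.37 SE, adjusted p = 0.207, edgeR). DESeq2 called SLC38A10 higher and SLC38A6 lower.

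The glutamate carriers of family 1 other than SLC1A1 were low and none was called. SLC1A2, which encodes the glial carrier EAAT2, had 0.957, 1.86 and 1.19 FPKM in LPS1, LPS2 and LPS3, and 0.291, 0.401 and 0.332 in LR1_2, LR3 and LR4. Its groups did not overlap (log2 fold change -2.08 ± 0.46 SE, adjusted p = 0.0676, edgeR), and DESeq2 called it lower (adjusted p = 0.000357). SLC1A3, the glial carrier EAAT1, was at 0.182, 0.113 and 0.127 FPKM in LPS1, LPS2 and LPS3, and at 0.0443, 0 and 0.0268 in LR1_2, LR3 and LR4. The groups did not overlap, but these LPS+LR21 values stand on 12, 0 and 5 counts. The SLC1A3 log2 fold change of -2.72 ± 1.57 (SE) was not called (adjusted p = 0.601, edgeR). SLC1A6, a neuronal glutamate carrier, varied as much within groups as between them. It had 0.729, 7.94 and 5.48 FPKM in LPS1, LPS2 and LPS3, and 0.311, 4.45 and 1.09 in LR1_2, LR3 and LR4 (log2 fold change -1.32 ± 0.99 SE, adjusted p = 0.737, edgeR), and RPL36, opposite to it, was at 74.5 and 109.7 FPKM in the 2 groups. By library RPL36 had 68.4, 59.4 and 95.6 FPKM in LPS1, LPS2 and LPS3, and 148, 78.7 and 102 in LR1_2, LR3 and LR4. Part of the SLC1A6 counts could belong to RPL36, which was not tested.

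The cationic amino acid carriers of family 7 include the CAT proteins that supply arginine, the substrate of nitric oxide synthase in mammalian macrophages. None was called, and none reached an unadjusted p under 0.05 or a call by DESeq2. SLC7A3 (CAT3) was the highest, with 4.25, 10.5 and 5.91 FPKM in LPS1, LPS2 and LPS3, and 3.34, 7.07 and 1.67 in LR1_2, LR3 and LR4. Its groups overlapped (log2 fold change -0.82 ± 0.58 SE, adjusted p = 0.705, edgeR). SLC7A1 (CAT1), the widely expressed form in mammals, had 0.289, 0.435 and 0.269 FPKM in LPS1, LPS2 and LPS3, and 0.522, 0.606 and 0.580 in LR1_2, LR3 and LR4. These groups did not overlap, with a fitted log2 change of 0.66 ± 0.56 (SE; adjusted p = 0.789, edgeR). SLC7A2 (CAT2), the form induced in activated mouse macrophages, was at 0.425 and 0.199 FPKM in the 2 groups and had no count in LR3. SLC7A11, the light chain of the cystine and glutamate exchanger that supplies cysteine for glutathione, had 1.79, 2.04 and 1.65 FPKM in LPS1, LPS2 and LPS3, and 0.377, 2.48 and 0.414 in LR1_2, LR3 and LR4. LR3 was above all LPS libraries while LR1_2 and LR4 were far below them, and the log2 fold change was -0.79 ± 0.75 (SE; adjusted p = 0.835, edgeR).

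Of 14 listed members of family 6, which include the neurotransmitter, taurine, creatine and betaine carriers, SLC6A4 rose and 13 were not called. SLC6A6, the taurine carrier (chromosome 12, 11100158 to 11190843, plus strand), was the only other one above 2 FPKM. It had 24.4, 41.4 and 61.5 FPKM in LPS1, LPS2 and LPS3, and 21.6, 29.8 and 32.4 in LR1_2, LR3 and LR4, with overlapping groups (log2 fold change -0.75 ± 0.38 SE, adjusted p = 0.503, edgeR). SLC6A8, the creatine carrier, had no count in LPS1 and LPS2 and 0.408 FPKM in LPS3, against 0.973, 0.922 and 1.13 in LR1_2, LR3 and LR4. The log2 fold change of 2.70 ± 1.70 (SE) was not called (adjusted p = 0.654, edgeR). In all, 25 of the 53 members had means under 1 FPKM in both groups, and 14 had no count in at least 1 library, 11 of them in LR3. Over the whole table LR3 had counts for 18811 genes, against 22493 to 24539 in the other libraries. The total of LR3, 40767345 counts, was inside the range of the others. A count of 0 allows up to 3 counts, which was 0.0659 to 0.0959 CPM (a count scaled to the library total) in these libraries. SLC7A14 was too low to be tested. It had 70 counts in LR1_2, 16 in LPS1 and none in the other 4 libraries. Other neurotransmitter carriers had few counts. SLC6A2, which takes up noradrenaline, had 35 to 78 counts per library, and SLC6A9 and SLC6A5, the glycine carriers, 0 to 76 and 29 to 140. The remaining low members, SLC7A10, SLC7A13, SLC6A7, SLC6A11, SLC6A12, SLC6A13, SLC6A15, SLC6A17, SLC38A8, SLC38A11, SLC15A5, SLC1A7 and SLC36A4, had means of at most 0.442 FPKM in the LPS group and none was called, with adjusted p from 0.551 to 0.997 (edgeR). SLC1A4, a carrier of serine and alanine, and SLC7A6OS were better measured, with ratios of the group means of 0.820 and 1.05 and adjusted p of 0.878 and 0.983.

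**Figure D5:**
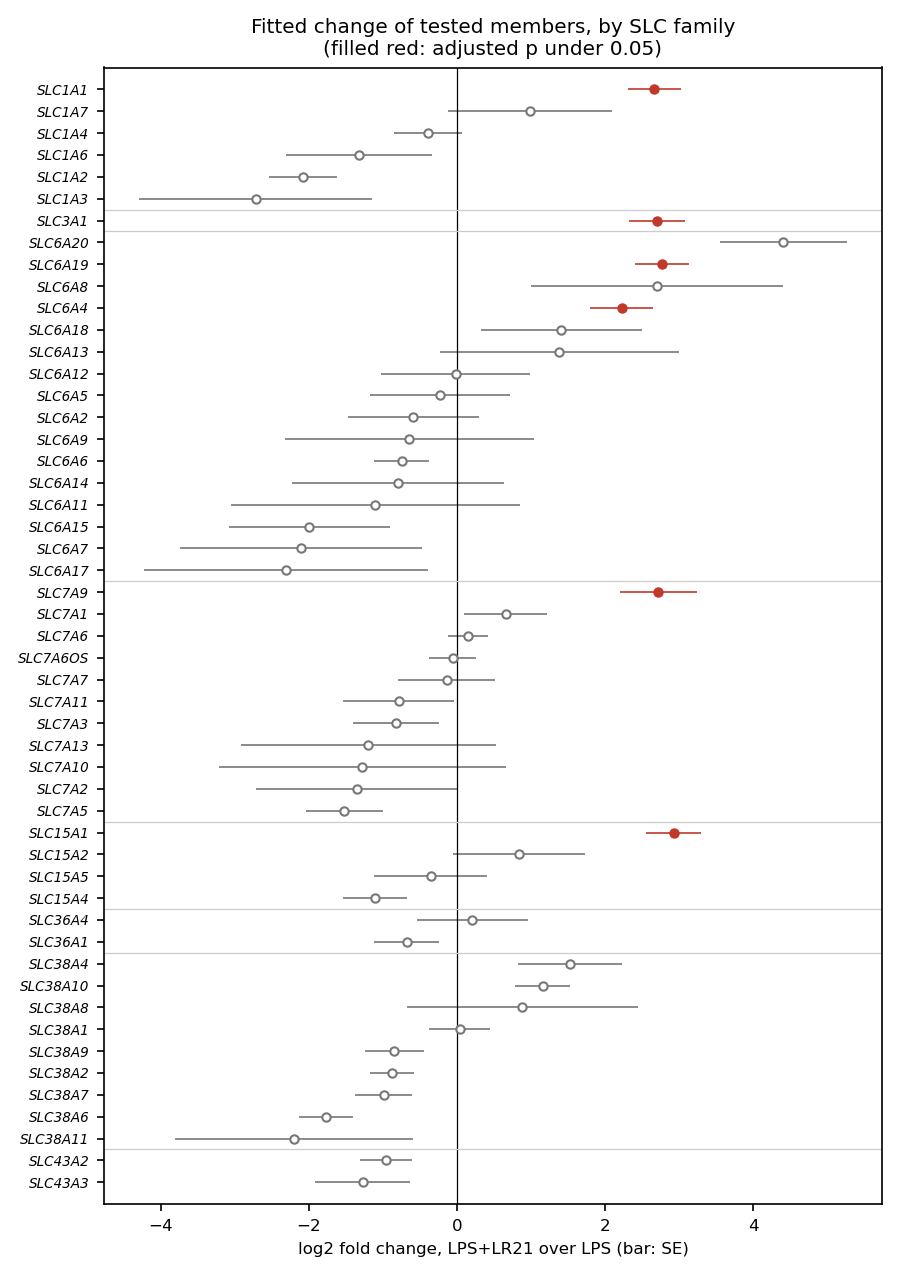
Log2 fold change of LPS+LR21 over LPS for all but 1 of the 52 tested members (points, with bars for 1 SE), ordered by SLC family, with the 6 called members in filled red. The called members lie between 2.22 and 2.93, and the wide bars belong to members of low level such as SLC6A17 and SLC1A3.

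Across all tested members 20 were fitted above 0 and 32 below 0. Their median log2 fold change was -0.49, beside -0.14 for the whole tested table. Without overlap between the groups, 12 of the 52 tested members were higher and 9 of the 52 were lower in the LPS+LR21 libraries. Of all 20745 tested genes, 2552 (12.3%) were higher and 1472 (7.1%) were lower in this way. In LR3 the 6 called members were 2.62 to 5.11 times the LPS mean, in LR1_2 6.23 to 10.97 times and in LR4 6.79 to 12.9 times.

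Genes that work next to these carriers were taken from lists. Of 13 brush-border peptidases and partners measured, 7 rose by edgeR, none fell, and all 13 were fitted above 0 (median log2 fold change 2.82). Of all tested genes, 0.974% were called higher. At an unadjusted p under 0.05 by edgeR 11 of the 13 were higher, and DESeq2 called 11 higher. CPO, a carboxypeptidase, had 32.3, 16.1 and 25.4 FPKM in LPS1, LPS2 and LPS3, and 424, 139 and 296 in LR1_2, LR3 and LR4. ACE, which trims peptides as well as angiotensin, rose from 9.65 ± 2.04 to 87.8 ± 29.1 FPKM (SD, n = 3 each), and the meprin subunit genes MEP1A and MEP1B and the aminopeptidase gene ENPEP rose by 3.28, 3.18 and 2.72 on the log2 scale. Of 8 other genes of peptide uptake and amino acid efflux none was called by edgeR, 4 were higher at an unadjusted p under 0.05 and DESeq2 called 1 higher. SLC16A10, which encodes the aromatic amino acid carrier TAT1 of the basolateral membrane, had 1.48, 1.15 and 1.64 FPKM in LPS1, LPS2 and LPS3, and 5.25, 3.23 and 8.20 in LR1_2, LR3 and LR4 (log2 fold change 1.78 ± 0.41 SE, adjusted p = 0.0748, edgeR). The next was LAP3, a cytosolic leucine aminopeptidase gene, with a log2 fold change of 1.19.

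Genes that respond to amino acid supply showed no common direction. Of 21 amino acid response genes in the table none was called by edgeR and 12 were fitted above 0 (median log2 fold change 0.09), with 5 higher and 4 lower at an unadjusted p under 0.05 and 3 higher and 2 lower by DESeq2. CTH, which makes cysteine from cystathionine, had 3.88 ± 0.986 and 16.5 ± 7.51 FPKM in the 2 groups (SD, n = 3 each; adjusted p = 0.0657, edgeR), and VLDLR, a lipoprotein receptor gene, had 33.2 ± 4.22 and 9.50 ± 6.21 (adjusted p = 0.117). Of 30 genes of mTORC1 amino acid sensing none was called by edgeR (median log2 fold change -0.30), with 2 higher and 3 lower at an unadjusted p under 0.05 and 1 higher and 1 lower by DESeq2. FNIP2, a partner of folliculin, had a fitted log2 change of 1.45 ± 0.34 (SE; adjusted p = 0.0814) and SESN3, a sestrin gene, -1.70 ± 0.44 (adjusted p = 0.114, edgeR). Of 23 genes of glutamine, glutamate and arginine metabolism none was called by edgeR (median log2 fold change -0.25), with 3 higher and 1 lower at an unadjusted p under 0.05 and 2 higher by DESeq2. GPT2, a mitochondrial alanine aminotransferase gene, and GLUL, the glutamine synthetase gene, had log2 fold changes of 1.73 and 2.33. GLUL was at 3.30, 3.88 and 2.84 FPKM in LPS1, LPS2 and LPS3, and at 39.9, 3.11 and 12.4 in LR1_2, LR3 and LR4, so its difference came from LR1_2 and LR4 while LR3 lay inside the LPS range.

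Other cell types that the sort could hold were looked at by their markers. Of 14 T and NK cell markers none was called by edgeR, 5 were higher at an unadjusted p under 0.05 and DESeq2 called 1. Their summed level was 153 to 211 FPKM in the LPS group, against 341, 525 and 363 in LR1_2, LR3 and LR4. The median log2 ratios to the LPS mean were 0.04, 1.41 and 0.73 in LR1_2, LR3 and LR4. Of 9 tested enteroendocrine markers 1 rose by edgeR (SCT) and none fell, with 7 fitted above 0 and 2 below. Their median log2 fold change was 0.80. At an unadjusted p under 0.05 by edgeR 2 were higher and none lower, and DESeq2 called 1 higher. The summed level of the 10 in the table was 26.7 to 33.6 FPKM in the LPS group, against 49.8 to 117 in the LPS+LR21 libraries. Of 13 tested fibroblast and smooth muscle markers 2 fell by edgeR (COL1A2 and COL3A1) and none rose, with a median log2 fold change of -0.76. Of the 13, 5 were fitted above 0 and 8 below. At an unadjusted p under 0.05 by edgeR 2 were higher and 2 lower, and DESeq2 called 2 higher and 2 lower. Both heterophil markers, CSF3R and LYZ, were fitted below 0 (median -1.01) and neither was called by edgeR or DESeq2, with 1 lower at an unadjusted p under 0.05. None of 10 B and plasma cell markers and none of 5 erythrocyte and thrombocyte markers was called by edgeR or DESeq2, with medians of -0.34 and -0.40 and 1 higher and 1 lower, respectively, at an unadjusted p under 0.05. Neuronal and glial markers, of interest for the glutamate and neurotransmitter carriers, had counts missing in some library for 6 of 10 genes. Of the 9 tested, 4 were fitted above 0 and 5 below, with a median log2 fold change of -0.94. Their summed level was 1.51 to 6.503 FPKM in the LPS group, against 10.2 to 42.3 in the LPS+LR21 libraries, where S100B alone had 26.5, 9.94 and 39.1 in LR1_2, LR3 and LR4. None of the 9 was called by edgeR while 1 was higher at an unadjusted p under 0.05 and DESeq2 called 1. The part of these cell types in the members' values was not tested.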

How the data were processed

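Per the file headers, the deposited table gives whole-number counts and FPKM by gene and library. The authors deposited the counts without normalization. Tools named in the submitters' processing notes are HISAT2 2.0.4, StringTie 1.3.4d, cutadapt 1.9 and edgeR, and per the labels' protocols libraries were made from RNA captured on oligo(dT) beads. Genome build and strand handling are not given in the sources used here. Coordinates are those of the table, and all 53 members overlap the RefSeq gene of the same Entrez identifier in assembly GRCg7b. The columns LR1_2, LR3 and LR4 of the LPS+LR21 group carry numbers other than those of the sample titles and were used as 3 replicates of that group, and 3 FPKM columns whose names match no single sample were not used. FPKM was recomputed for all 6 libraries from the counts, each column's total and the lengths that the authors' LPS columns imply. Where each LPS library had at least 100 counts (9889 genes), 100% of values lay within 5% of the deposited LPS values, from which the lengths came. The recomputed LPS+LR21 values were not checked against deposited ones. Gene model lengths were scaled on 30 mitochondrial genes.

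edgeR 4.0.16 (R 4.3.3) tested 20745 genes after filterByExpr with TMM factors (0.928 to 1.19), glmQLFit and glmQLFTest, no covariate, two-sided, with Benjamini-Hochberg adjustment over all tested genes and a threshold of 0.05. The common coefficient of biological variation came to 0.773. Standard errors are the log2 fold change over the root of F. The code was tested on simulated data with large changes and less variation between libraries than found here. That test checked the code only and does not show how the method performs at the variation of these data. Alternatives used DESeq2 1.42.0, limma 3.58.1 on log2(FPKM + 0.1) and log2(FPKM + 1), other normalizations and filters, and each library left out in turn. The members, the gene lists and the tests were chosen with earlier results of these data known. Named are all called members, the 2 highest members of each role group, 12 further members chosen after their values were seen, other members as single values, and from each pathway list up to 6 called genes, or the 2 of smallest p, with TPH1, GLUL and the genes that overlap members added after their values were seen. Whether each library came from other birds is not stated, so that p-values reflect only how these samples vary, which may be technical. Every 2 libraries differed by more than sampling noise (lowest chi-square per degree of freedom 107). Floors cover counting error only. Values of 1 member and of 1 brush-border gene are not reported here.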

Additional observations from a re-analysis of the deposited data

How the results depend on the processing

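No paired analysis was possible because the LPS+LR21 columns do not carry the numbers of the sample titles. Members called higher numbered 6, and 0 with upper-quartile factors (8 at an unadjusted p under 0.05, smallest adjusted p of any gene 0.0534) and 0 to 7 with each library left out in turn. They numbered 8 with DESeq2, and 7 with RLE size factors, with library totals, without a filter and with limma-trend on log2(FPKM + 0.1). At a mean of at least 5 FPKM and with limma-trend on log2(FPKM + 1) they numbered 5. Members called lower numbered 0, and 1 with library totals, 1 without a filter, 1 at a mean of at least 5 FPKM, 1 with limma-trend on log2(FPKM + 0.1), 1 with limma-trend on log2(FPKM + 1), 3 with DESeq2 and 0 to 8 with each library left out. The 8, called without LR3, were SLC15A4, SLC1A2, SLC38A6, SLC38A9, SLC43A2, SLC43A3, SLC7A11 and SLC7A5. Over all genes 202 were called higher and 17 lower in the main test, against 0 and 0 with upper-quartile factors, 1008 and 341 with DESeq2, 341 and 101 at a mean of at least 5 FPKM, 394 and 47 with limma-trend on log2(FPKM + 0.1), and 34 lower with limma-trend on log2(FPKM + 1). With each library left out they ranged from 0 to 1086 higher and from 0 to 859 lower, and only the fit without LR3 made calls. Of the fold changes of 28 named members under the alternatives, 314 kept their direction and side of the threshold, 37 lost a call, 23 gained one and 4 turned sign. Those 4 were all of SLC7A7, at 0.095 with library totals, 0.0064 with limma-trend on log2(FPKM + 1), 0.13 without LPS3 and 0.31 without LR3, over a range of -0.82 to 0.31 with each library left out. Library totals moved the median log2 fold change of all genes by 0.15 and upper-quartile factors by -0.11. The cause of these differences was not tested. DESeq2 gave an adjusted p for 32 members, and the 25 members under 1 FPKM have wide errors.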
